A study of Mus musculus with 8 samples.

Results

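The genes described here are 10 genes of bile acid synthesis and bile acid transport in mouse liver. They were taken by name from the count table of the study: *Cyp7a1*, *Cyp8b1*, *Cyp27a1*, *Cyp7b1*, *Hsd3b7*, *Akr1d1*, *Slc27a5*, *Baat*, *Slc10a1* and *Abcb11*. The table has 23282 rows, each of the 10 genes has 1 row, and all 10 were among the 12701 rows with enough counts to be tested. Livers came from C57BL/6 mice that the labels describe as males of 4 weeks. The control group received saline and the endotoxemic group received LPS, the bacterial endotoxin, at 25 mg/kg by intraperitoneal injection. The mice of the LGK974 group received LGK974, an inhibitor of the acyltransferase Porcn that Wnt proteins need for secretion. For this group the labels name the agent alone, and the paper's text gives 60 mg/kg LGK974 together with 25 mg/kg LPS. Livers were taken 6 h after LPS, and LGK974 was given 2 h before LPS in most experiments. RNA was read from the 3′ ends of transcripts (QuantSeq), so a gene contributes reads regardless of its length. The comparison of the endotoxemic with the control group addresses what LPS does to the liver, and that of the LGK974 with the endotoxemic group addresses the inhibitor on top of LPS.

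Bile acids are made from cholesterol in hepatocytes. In the classical pathway, Cyp7a1 adds the first hydroxyl group and sets the rate of the whole route, and Cyp8b1 adds the hydroxyl that makes cholic acid. In the acidic pathway, Cyp27a1 and Cyp7b1 act on the side chain and on the ring of oxysterols, and both routes pass through the ring enzymes Hsd3b7 and Akr1d1. The ligase Slc27a5 (bile acid-CoA ligase) and the transferase Baat then join bile acids to taurine or glycine. Slc10a1 (NTCP) takes conjugated bile acids up from the blood, and Abcb11 (BSEP) pumps them across the canalicular membrane into bile. The nuclear receptor FXR, encoded by *Nr1h4*, senses bile acids, represses their synthesis through SHP (*Nr0b2*) and raises their export.

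The series holds 8 libraries, but the counts of endotoxemic libraries 3 and 4 repeat those of 1 and 2 on every row, so each pair was counted once. This left 2 distinct libraries in each of the 3 groups, with totals between 9142116 and 15222439 counts. A floor of 3 counts corresponded to between 0.196 and 0.327 CPM (counts scaled to a common library size of 1e6, with the size adjusted here by TMM, the trimmed mean normalization of edgeR), and it covers counting error only. The labels do not say whether the libraries of a group came from separate mice, so p-values measure the spread between these libraries, which may be technical. The 4 control and endotoxemic libraries went against the labelled sex. *Xist*, the RNA that silences one X chromosome in females, was read 1444 and 3115 times in control, 1171 and 1884 times in endotoxemic, and 3 and 7 times in LGK974 livers. The Y-linked gene *Ddx3y* had 0 counts in each control and endotoxemic library and 1755 and 1392 counts in the LGK974 libraries. No comparison with the LGK974 group can therefore be told apart from this difference between the libraries, and the comparison of endotoxemic with control libraries lies within libraries of 1 kind.

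Of 23134 rows with a known gene position, 22346 follow the genes along the chromosomes. In 579 rows the symbol belongs more than 2 Mb away, and the rest stand near their place. None of the 10 genes was among these 579 rows. The 1 member with a neighbour out of place was *Cyp8b1*, whose preceding row carries *Reg3g*, a gene of chromosome 6, where *Ackr2* would stand. The counts of that row were 0 and 0 in the control, 36 and 18 in the endotoxemic and 22 and 20 in the LGK974 libraries, while *Cyp8b1* had 2266 and 2267 counts in the control libraries. Among the other pathway genes named below, *Ch25h*, *Abcd3*, *Stard4* and *Vdr* stand in order but have a neighbouring row whose symbol does not. *Cyp7b1*, *Abcb11*, *Akr1d1* and *Hsd3b7* each overlap at least 1 annotated gene that has no row of its own, among them *Gm13613* antisense to *Abcb11* and the protein-coding *Gm49388* on the strand of *Hsd3b7*. Whether the counting used strand is not given in the sources used here, and reads of such overlapping genes cannot be told apart. RefSeq promoter windows on GRCm38.p6, the build of mm10, were found for 6 of the 10 genes. Those of *Cyp8b1*, *Abcb11* and *Cyp27a1* are shown because they belong to a synthesis gene with a large fall, to the export pump, and to a synthesis gene with a small fall. Each holds the 250 bases before the annotated start, 5′ to 3′ on the gene's strand, and capitals mark the motif matches. The windows lie at chr9:121916306-121916555 on the minus strand for *Cyp8b1*, at chr2:69342617-69342866 on the minus strand for *Abcb11*, and at chr1:74713285-74713534 on the plus strand for *Cyp27a1*.
Cyp8b1: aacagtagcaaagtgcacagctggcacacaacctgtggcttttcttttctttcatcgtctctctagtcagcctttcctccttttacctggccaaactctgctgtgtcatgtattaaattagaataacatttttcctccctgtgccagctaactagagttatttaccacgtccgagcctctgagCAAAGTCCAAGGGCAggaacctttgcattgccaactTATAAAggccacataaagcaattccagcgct
Abcb11: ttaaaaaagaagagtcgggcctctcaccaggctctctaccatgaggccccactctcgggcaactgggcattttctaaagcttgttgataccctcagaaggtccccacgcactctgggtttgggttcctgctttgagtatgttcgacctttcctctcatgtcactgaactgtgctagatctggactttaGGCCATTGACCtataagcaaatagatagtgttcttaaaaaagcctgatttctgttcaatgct
Cyp27a1: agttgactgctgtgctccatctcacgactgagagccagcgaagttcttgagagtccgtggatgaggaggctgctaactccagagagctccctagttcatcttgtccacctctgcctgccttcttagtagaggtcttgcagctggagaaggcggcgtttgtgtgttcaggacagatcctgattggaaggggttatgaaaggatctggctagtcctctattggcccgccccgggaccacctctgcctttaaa
4 motifs were searched on both strands, and they were chosen with these sequences in view. The HNF4-type element CAAAGTCCA was found at positions −67 to −59 of the *Cyp8b1* window and in 0.384% of 32851 windows of this length. The LRH-1 element, CAAGG followed by any base and CA, stood at −60 to −53 of *Cyp8b1*, where it shares bases with the HNF4-type match, and in 5.53% of windows. The TATA box TATAAA stood at −31 to −26 of *Cyp8b1* and in 12.4% of windows. In *Abcb11*, an inverted repeat of GGNCA and TGACC with 1 base between them, the kind of element that FXR binds with RXR, stood at −62 to −52 and in 0.198% of windows. None of the 4 was found in the windows of *Cyp27a1*, *Hsd3b7* and *Akr1d1*, which says only that these letters are not there. *Hsd3b7* and *Akr1d1* both fell more than *Cyp27a1* in the endotoxemic libraries. The windows of *Slc10a1* held only TATAAA, on the opposite strand at −128 to −123.

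In the livers of endotoxemic mice, 8 of the 10 genes fell compared with control and 0 rose (edgeR quasi-likelihood test, Benjamini-Hochberg adjusted p below 0.05). Among all genes tested, 23.0% were lower and 20.4% were higher in this comparison. No member was called higher at an unadjusted p below 0.05 either, and DESeq2 called 0 higher and 8 lower, against 51.3% of all genes at an unadjusted p below 0.05 in either direction and 21.1% higher and 22.6% lower by DESeq2. The median log2 fold change was −2.99 over the 10 genes and 0.01 over all genes tested. Of the 10 genes, 9 were lower and 1 was higher in both endotoxemic libraries than in either control library, whereas 39.2% and 37.9% of all genes tested showed these patterns. The falls ran from 2.25-fold for *Cyp27a1* to 129.6-fold for *Cyp7a1*.

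**Figure D1:**
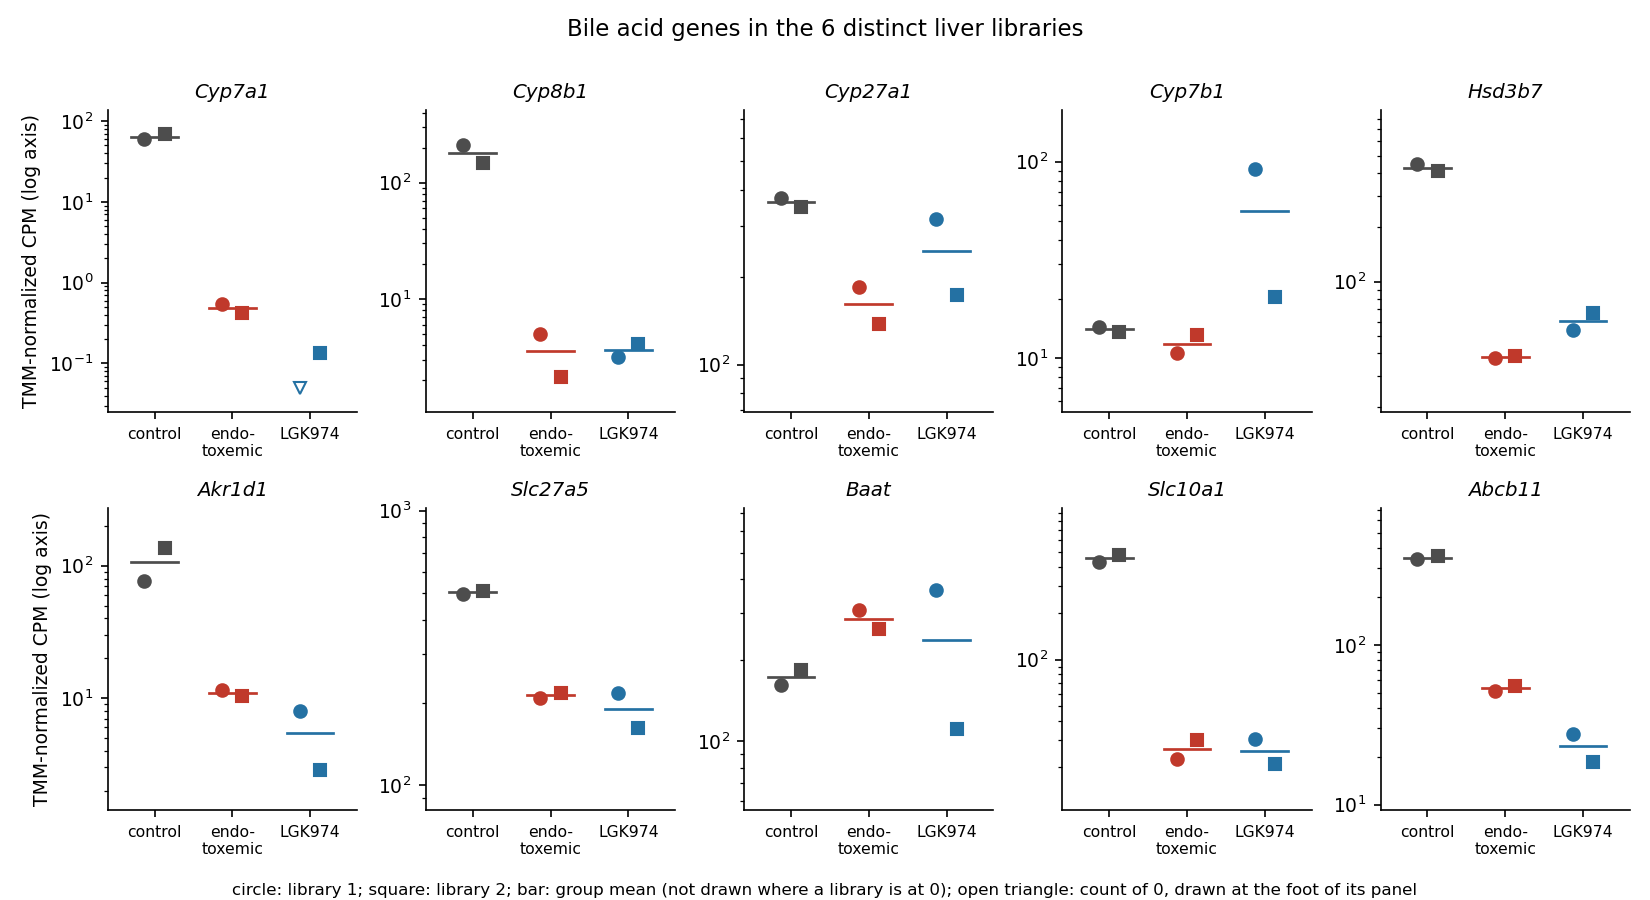
TMM-normalized CPM on a log axis for each of the 10 bile acid genes, with 1 panel per gene and 1 point per distinct library (2 in each group), bars at the group means and an open triangle for a count of 0. *Cyp7a1*, *Cyp8b1*, *Slc10a1*, *Hsd3b7*, *Akr1d1* and *Abcb11* were far below control in the endotoxemic and LGK974 libraries, while *Cyp7b1* was above control in both LGK974 libraries at 91.6 and 20.4 CPM.

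The 2 genes of the classical pathway fell the most. *Cyp7a1* (chr4:6265612-6275633, like all gene coordinates here on mm10) stood at 59.96 and 68.5 CPM in the control libraries, at 0.546 and 0.426 CPM in the endotoxemic libraries, and at 0 and 0.135 CPM in the LGK974 libraries. The endotoxemic values rest on 5 and 4 counts, against 646 and 1048 in control. The mean level was 0.757% of control, with a log2 fold change of −7.02 (SE 0.41) and an adjusted p of 3.77e-06. Only 99 of the 12701 genes tested had a more negative log2 fold change. *Cyp8b1* (chr9:121914356-121916305) was at 210.3 and 148.2 CPM in the control libraries, at 5.02 and 2.13 CPM in the endotoxemic libraries, and at 3.17 and 4.06 CPM in the LGK974 libraries. Its mean endotoxemic level was 1.995% of control, with a log2 fold change of −5.65 (SE 0.39, adjusted p 9.3e-06). For both genes, every endotoxemic library lay far below every control library, although the endotoxemic libraries differed 2.35-fold from each other in *Cyp8b1*. The levels of the factors whose motifs stand in the *Cyp8b1* window were looked up after the motifs had been found. *Nr5a2*, which encodes LRH-1, fell by 0.86 on the log2 scale (SE 0.20, adjusted p 0.00812), and *Hnf4a* had a log2 fold change of −0.16 (SE 0.19, adjusted p 0.539). The gene *Hnf4aos* overlaps *Hnf4a* on the opposite strand.

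The acidic pathway differed less between the endotoxemic and control groups. *Cyp27a1* (chr1:74713574-74737892), the mitochondrial sterol hydroxylase, was at 375.9 and 349.9 CPM in the control libraries, at 184.7 and 137.5 CPM in the endotoxemic libraries, and at 318.1 and 173.6 CPM in the LGK974 libraries. It fell 2.25-fold (log2 fold change −1.17, SE 0.29, adjusted p 0.0103), and the 4 libraries did not overlap between control and endotoxemic. The call was lost without control library 1 (−1.12, adjusted p 0.0638) and without endotoxemic library 2 (−0.97, adjusted p 0.0971). *Cyp7b1* (chr3:18071950-18243338), the oxysterol hydroxylase, was at 14.3 and 13.6 CPM in the control libraries, at 10.58 and 13.004 CPM in the endotoxemic libraries, and at 91.6 and 20.4 CPM in the LGK974 libraries. The endotoxemic libraries were slightly lower, and the difference did not pass the test (log2 fold change −0.24, SE 0.56, adjusted p 0.757).

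Both ring enzymes fell. *Hsd3b7* (chr7:127800604-127803802), the steroid dehydrogenase that follows the hydroxylation at the ring, was at 447.6 and 409.5 CPM in the control libraries, at 37.8 and 38.8 CPM in the endotoxemic libraries, and at 53.7 and 67.2 CPM in the LGK974 libraries. The 2 endotoxemic libraries were nearly equal, and the mean was 8.93% of control (log2 fold change −3.48, SE 0.21, adjusted p 4.63e-06). *Akr1d1* (chr6:37530173-37568815), the 5β-reductase, was at 76.9 and 135.8 CPM in the control libraries, at 11.5 and 10.4 CPM in the endotoxemic libraries, and at 8.002 and 2.84 CPM in the LGK974 libraries. The control libraries differed 1.76-fold, and the endotoxemic libraries were still far below both (log2 fold change −3.28, SE 0.44, adjusted p 0.000396).

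The 2 conjugation genes parted. *Slc27a5* (chr7:12988346-12998192) was at 497.2 and 510.0 CPM in the control libraries, at 208.5 and 216.8 CPM in the endotoxemic libraries, and at 216.1 and 162.4 CPM in the LGK974 libraries. The spread within each group was small beside the difference, which was 2.37-fold (log2 fold change −1.24, SE 0.20, adjusted p 0.00116). *Baat* (chr4:49489422-49506557) was at 162.3 and 184.4 CPM in the control libraries, at 307.4 and 261.8 CPM in the endotoxemic libraries, and at 364.9 and 111.3 CPM in the LGK974 libraries. It was the 1 member that was higher in both endotoxemic libraries (log2 fold change 0.71, SE 0.44), and the adjusted p was 0.213. The gene was called higher in this comparison with only control and endotoxemic libraries in the model (adjusted p 0.00151), and also with no filter on low counts (adjusted p 0.006). Its log2 fold change was 0.72 without LGK974 library 1 or 2.

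Both transporters fell. *Slc10a1* (chr12:80953183-80968705), the uptake carrier, was at 430.6 and 481.1 CPM in the control libraries, at 22.5 and 30.1 CPM in the endotoxemic libraries, and at 30.3 and 21.0 CPM in the LGK974 libraries. Its mean endotoxemic level was 5.76% of control (log2 fold change −4.12, SE 0.27, adjusted p 5.98e-06). *Abcb11* (chr2:69238282-69342616), the export pump, was at 342.0 and 356.7 CPM in the control libraries, at 51.7 and 55.5 CPM in the endotoxemic libraries, and at 27.9 and 18.5 CPM in the LGK974 libraries. It fell 6.51-fold (log2 fold change −2.70, SE 0.24, adjusted p 3.16e-05). The control and the endotoxemic libraries each differed little from one another for the pump, and the 3 groups did not overlap.

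Ordered by log2 fold change, the members ran from *Cyp7a1* through *Cyp8b1*, *Slc10a1*, *Hsd3b7*, *Akr1d1*, *Abcb11*, *Slc27a5*, *Cyp27a1* and *Cyp7b1* to *Baat*. The ranges of estimate ± SE overlapped between *Hsd3b7* and *Akr1d1*, between *Akr1d1* and *Abcb11*, between *Slc27a5* and *Cyp27a1*, and between *Cyp7b1* and *Baat*, so the order within these pairs is not resolved. The counts of 8 lower and 0 higher held under every normalization tried, with the replicate block and with DESeq2. Without control library 1 or without endotoxemic library 2, 7 members were called lower.

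**Figure D2:**
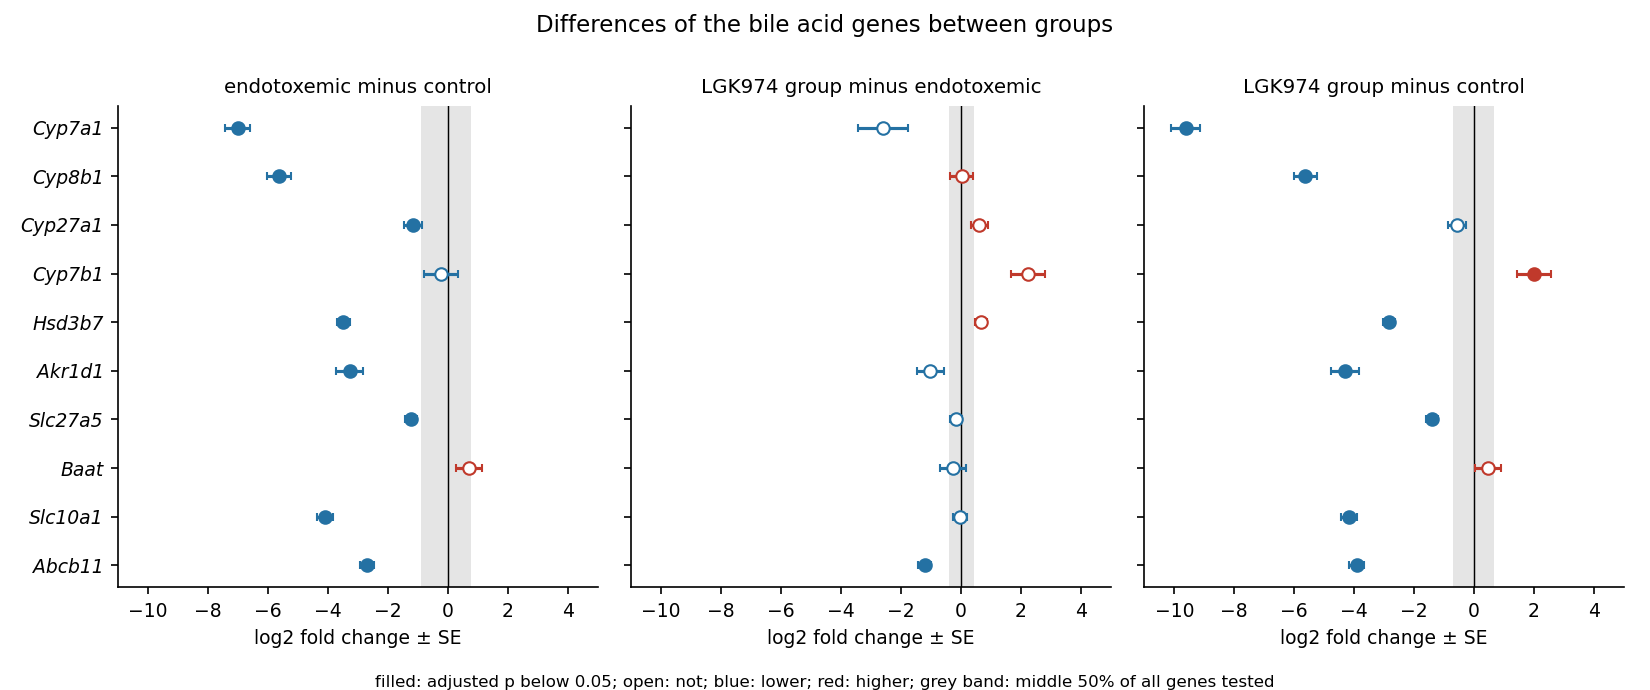
Log2 fold change ± SE (x axis) of each bile acid gene in the 3 comparisons, filled where the adjusted p was below 0.05, with the middle 50% of all genes tested as a grey band. In the first panel 8 genes are filled and lower; in the second only *Abcb11* is filled, at −1.21; in the third 7 are lower and *Cyp7b1* is higher, at 2.01.

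Most hepatocyte markers fell in the same libraries. Over the 10 markers whose rows stand in order, the summed level was 130700 and 99820 CPM in the control libraries, 63250 and 46510 CPM in the endotoxemic libraries, and 50520 and 48670 CPM in the LGK974 libraries, and no marker was at 0. In the endotoxemic libraries 7 of these 10 were lower, with a median log2 fold change of −0.98. Fewer hepatocytes and less RNA per hepatocyte cannot be told apart in bulk liver. The median of the bile acid genes was −2.99, and 6 members fell by 2.70 or more on the log2 scale. Single hepatocyte markers in order ranged from −2.31 to 0.27, and whether the bile acid genes differed from them was not tested. Of the 9 neutrophil and monocyte markers, the 3 in order (*Csf3r*, *Ly6c2* and *Ptprc*) all rose, from a summed 4.73 and 8.24 CPM to 28.6 and 44.7 CPM, and were at 14.9 and 20.9 CPM in the LGK974 libraries. The 5 sinusoidal endothelium markers summed to between 218.5 and 229.4 CPM in control, 395.9 and 399.7 CPM in endotoxemic, and 428.5 and 548.2 CPM in LGK974 libraries, with 1 higher (*Lyve1*) and 2 lower in the endotoxemic group. The rise of this sum was that of *Lyve1*, a receptor for hyaluronan whose row stands in order after a row out of order (*Snord53*), and the other 4 markers together went from 169.0 and 193.7 CPM to 39.8 and 59.8 CPM, and stood at 29.4 and 49.7 CPM in the LGK974 libraries. Of the 5 Kupffer cell markers in order, 1 was higher and 2 were lower, and their sum lay between 85.5 and 138.4 CPM in all 6 libraries. Without *Marco*, the scavenger receptor that was higher, the other 4 summed to 88.6 and 94.4 CPM in the control, 41.8 and 42.6 CPM in the endotoxemic, and 24.6 and 21.99 CPM in the LGK974 libraries. The 6 lymphocyte markers summed to at most 7.33 CPM in any library. The 9 bile duct and gallbladder markers summed to 30.4 and 30.5 CPM in the control libraries, 84.4 and 90.2 CPM in the endotoxemic libraries, and 42.7 and 93.1 CPM in the LGK974 libraries, with *Sox9* higher and the defining keratin *Krt19* lower in the endotoxemic group at 0 and 1 counts. Without *Sox9* the bile duct sum was 20.5 and 22.7 CPM in the control, 10.6 and 10.8 CPM in the endotoxemic, and 18.1 and 21.9 CPM in the LGK974 libraries. The part of these cell types in the bile acid results was not tested.

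**Figure D3:**
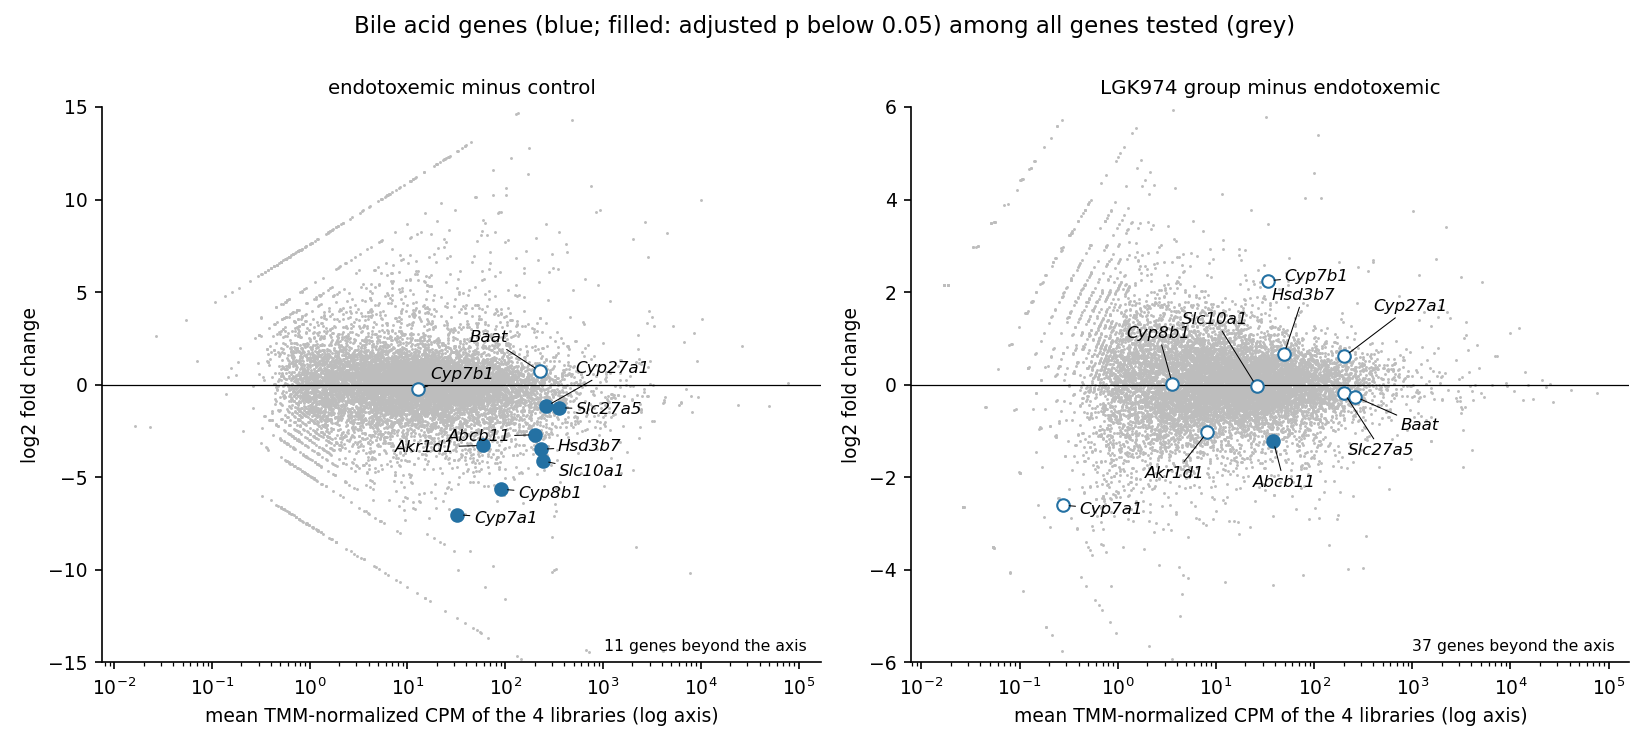
Log2 fold change (y axis) against the mean TMM-normalized CPM of the 4 libraries compared (x axis, log scale) for all 12701 genes tested (grey) and the bile acid genes (blue, filled where the adjusted p was below 0.05), with 11 genes beyond the left axis and 37 beyond the right. In the endotoxemic libraries 9 members lie below 0, 8 of them filled, and *Cyp7a1*, *Cyp8b1* and *Slc10a1* lie lowest. Between the LGK974 and endotoxemic groups the members lie from −2.6 to 2.25, and only *Abcb11* is filled.

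Between the LGK974 and endotoxemic groups, 1 of the 10 genes was lower with LGK974 and 0 were higher (edgeR quasi-likelihood test). Among all genes tested, 2.82% were lower and 2.8% were higher. At an unadjusted p below 0.05, 3 members were lower and 2 were higher, together 5 of 10 against 22.9% of all genes in either direction. DESeq2 called 1 lower and 1 higher, against 4.94% and 4.72% of all genes. The median log2 fold change was −0.1 over the members and 0.03 over all genes tested. Both LGK974 libraries were below both endotoxemic libraries for *Cyp7a1*, *Abcb11* and *Akr1d1* and above both for *Cyp7b1* and *Hsd3b7*, while 3300 and 3370 of the 12701 genes tested were lower and higher in this way.

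The 1 gene called was *Abcb11*, for which 27.9 and 18.5 CPM in the LGK974 libraries stood against 51.7 and 55.5 CPM in the endotoxemic libraries. The pump was 2.32-fold lower (log2 fold change −1.21, SE 0.23, adjusted p 0.0206). The log2 fold change was −1.54 without LGK974 library 1 and −0.95 without LGK974 library 2. In these fits the LGK974 group holds 1 library, so its own spread is not tested. The call was lost without endotoxemic library 1 (−1.29) or 2 (−1.16) and without control library 1 (−1.21) or 2 (−1.21). With only the LGK974 and endotoxemic libraries in the model the adjusted p was 0.061.

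*Cyp7b1* was at 91.6 and 20.4 CPM in the LGK974 libraries, above both endotoxemic libraries. The LGK974 libraries differed 4.48-fold from each other, a ratio that 2.97% of the genes above 0 in both libraries reached. The log2 fold change was 2.25 (SE 0.57) with an adjusted p of 0.0535, just above the threshold of 0.05, so it was not called. DESeq2 called it (adjusted p 0.001). The log2 fold change was 2.96 without LGK974 library 2 and 0.79 without LGK974 library 1. In edgeR with only the LGK974 and endotoxemic libraries in the model the adjusted p was 0.103. *Cyp7b1* is known to be more active in male than in female mouse liver, and sex-biased genes moved with it. A list of 10 other genes known to be higher in male liver, such as *Cyp4a12a* and *Mup20*, summed to 706.0 and 872.7 CPM in the endotoxemic libraries and 8618 and 5375 CPM in the LGK974 libraries, and 6 of the 10 were higher. A list of 10 genes known to be higher in female liver summed to 131.3 and 130.5 CPM and then to 3.85 and 3.99 CPM, and 8 of the 10 were lower. In the control libraries the sums were 1087 and 1190 CPM for the male-biased and 1106 and 1151 CPM for the female-biased list. Between the endotoxemic and control groups, 5 male-biased genes were lower and 1 was higher, and 9 female-biased genes were lower. LGK974 library 1 had the higher *Cyp7b1* level and the higher sum of male-biased genes, but it was the higher library for 7 of the 10 members. The Y-linked genes *Kdm5d* and *Uty* were higher in LGK974 library 2. A link between these levels was not tested. The difference in *Cyp7b1* cannot be told apart from the difference in *Xist* and Y-linked genes between the libraries.

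**Figure D4:**
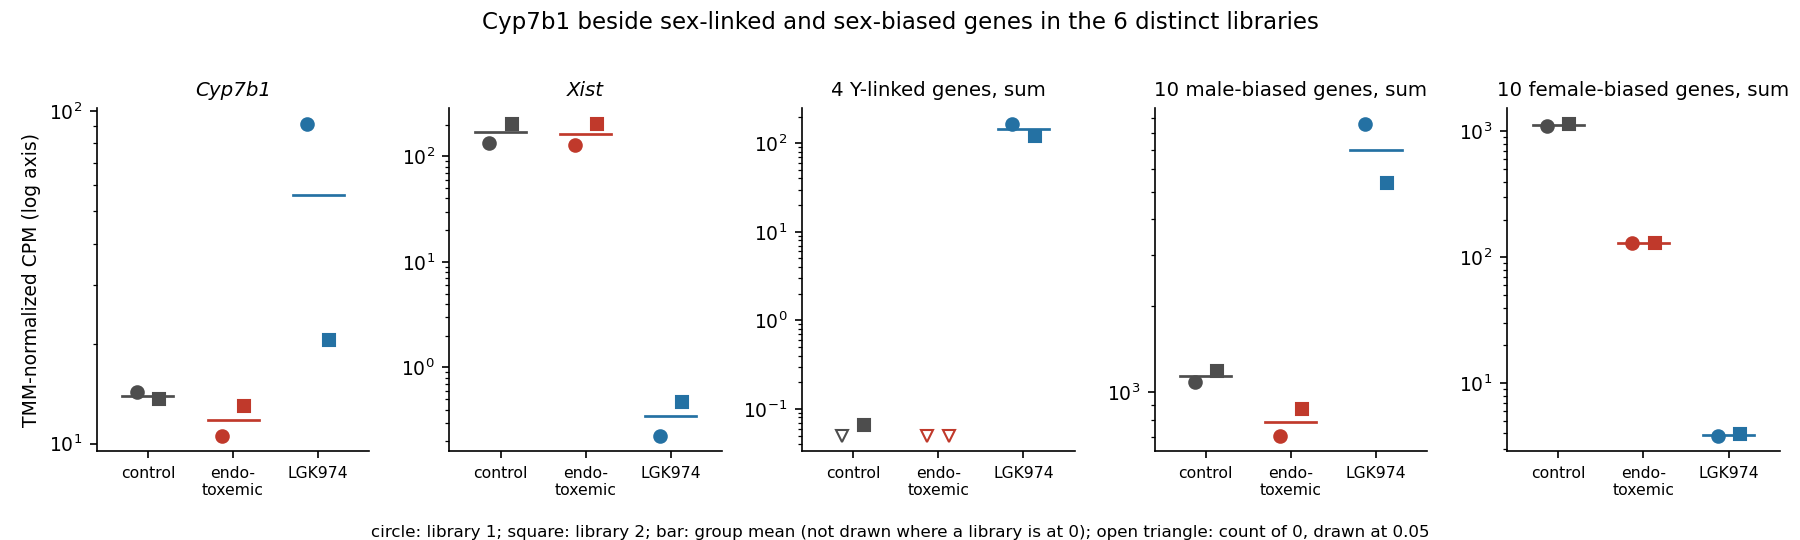
TMM-normalized CPM on a log axis in the 6 distinct libraries for *Cyp7b1*, *Xist*, the sum of 4 Y-linked genes, and sums over 10 genes higher in male and 10 higher in female liver, with open triangles for a count of 0. Apart from 1 count in control library 2, only the LGK974 libraries hold Y-linked counts, and *Cyp7b1* and the sum of the male-biased genes are highest there.

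The other 8 genes did not pass the test between the LGK974 and endotoxemic groups. *Hsd3b7*, at 53.7 and 67.2 CPM against 37.8 and 38.8 CPM, had a log2 fold change of 0.66 (SE 0.20, adjusted p 0.0858). Its estimate was 0.81 without LGK974 library 1 and 0.49 without LGK974 library 2. *Akr1d1* had −1.02 (SE 0.45, adjusted p 0.215), with −1.94 without LGK974 library 1 and −0.45 without LGK974 library 2. *Cyp27a1* had 0.61 (SE 0.29, adjusted p 0.245), with 0.98 without LGK974 library 2 and 0.11 without LGK974 library 1. *Baat* had −0.26 (SE 0.43, adjusted p 0.765), with 1 LGK974 library above and 1 below both endotoxemic libraries. Without LGK974 library 1 its estimate was −1.35, and without LGK974 library 2 it was 0.36. *Slc27a5* (−0.17, SE 0.20), *Slc10a1* (−0.04, SE 0.24) and *Cyp8b1* (0.02, SE 0.39) overlapped between the groups, with adjusted p from 0.661 to 0.982. *Cyp7a1* had 2 counts in all in the LGK974 libraries and 9 in the endotoxemic libraries, a ratio of 6.92 with a 95% interval of 1.43 to 65.8 from counting error alone (exact binomial), and an adjusted p of 0.104. LGK974 library 1 holds 0 of these counts and LGK974 library 2 holds 2.

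The 2 LGK974 libraries differed more from each other than the libraries of the other groups did. The share of counts on the ribosomal precursor *Rn45s* was 4.8% and 9.38% in the LGK974, 7.17% and 7.82% in the control and 8.12% and 8.26% in the endotoxemic libraries, and its part in the differences between libraries was not tested. The median ratio between the 2 libraries over all genes tested and above 0 in both was 1.34 in the LGK974 group, 1.2 in control and 1.21 in the endotoxemic group. Over the bile acid genes above 0 in both libraries it was 1.51, 1.105 and 1.201, respectively. The members with a ratio of 2 or more in the LGK974 group were *Cyp7b1* (4.48), *Baat* (3.28) and *Akr1d1* (2.81), all higher in LGK974 library 1, and 17.4% of all genes reached a ratio of 2 there.

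Compared with control, 7 of the 10 genes were lower in the LGK974 group and 1 was higher, against 17.7% and 16.4% of all genes tested. This comparison shares its control libraries with the first one, and it shares its LGK974 libraries with the second. The median log2 fold change was −3.37 over the members, a value that does not depend on the size given to *Cyp7a1*, and 0.02 over all genes. Both LGK974 libraries lay below both control libraries for 8 members and above for 1, as 34.3% and 33.8% of all genes did. *Cyp7a1* had 2 counts in the LGK974 libraries against 1694 in the control libraries, a ratio of 907.6 with a 95% interval of 250.9 to 7501 (adjusted p 1.65e-06). *Cyp8b1* was 49.3-fold lower (log2 fold change −5.62, SE 0.39, adjusted p 9.82e-06), *Akr1d1* was 19.7-fold lower (−4.30, SE 0.47, adjusted p 0.000146) and *Slc10a1* was 17.8-fold lower (−4.15, SE 0.27, adjusted p 6.36e-06). *Abcb11* was at 6.63% of control (log2 fold change −3.92, SE 0.25, adjusted p 6.2e-06), *Hsd3b7* at 14.1% (−2.83, SE 0.21, adjusted p 1.38e-05) and *Slc27a5* at 37.6% (−1.41, SE 0.20, adjusted p 0.000783). The export pump thus stood at 15.4% of control in the endotoxemic and at 6.63% in the LGK974 group.

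*Cyp7b1* was the 1 gene above control, at a log2 fold change of 2.01 (SE 0.55, adjusted p 0.0213). The call was lost without control library 1 (adjusted p 0.112), without control library 2 (adjusted p 0.117) and without LGK974 library 1, where the estimate was 0.56 (adjusted p 0.138). *Cyp27a1* (−0.56, SE 0.29, adjusted p 0.162) and *Baat* (0.46, SE 0.43, adjusted p 0.452) did not pass. Without LGK974 library 1 their estimates were −1.06 and −0.63, respectively, and without LGK974 library 2 that of *Baat* was 1.08.

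A further 18 genes of bile acid synthesis were listed by name, of which 17 have a row and 16 were tested. In the endotoxemic group 11 were lower and 1 was higher than control, against 23.0% and 20.4% of all genes tested. The median log2 fold change was −1.69, against 0.01 over all genes tested. The 1 that rose was *Ch25h*, the cholesterol 25-hydroxylase, with 0 and 6 counts in the control, 542 and 363 in the endotoxemic, and 169 and 138 in the LGK974 libraries. Its log2 fold change was 7.69 (SE 0.60, adjusted p 1.67e-05), and both rows beside it, *Ptger3* and *Gper1*, are out of order. The largest falls were those of *Akr1c14*, a hydroxysteroid dehydrogenase, from 72.8 and 85.2 CPM to 2.62 and 4.16 CPM (−4.54, SE 0.47, adjusted p 7.69e-05), of *Acnat1*, an acyltransferase beside *Baat* on chromosome 4, from 85.6 and 100.4 CPM to 5.24 and 3.41 CPM (−4.43, SE 0.62, adjusted p 0.000477), and of *Abcd3*, the peroxisomal importer of bile acid intermediates, from 488.9 and 458.8 CPM to 74.3 and 73.3 CPM (−2.68, SE 0.20, adjusted p 1.53e-05). *Acnat1* has a close copy in *Acnat2*, and how reads shared by such copies were counted is not given in the sources used here. *Acnat1* and *Baat* thus stood on neighbouring rows, with the first at 4.65% and the second at 164.1% of its control level.

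Between the LGK974 and endotoxemic groups, 3 of these 16 genes were higher and 1 was lower, against 2.8% and 2.82% of all genes tested. *Acnat1* was at 11.5 and 48.8 CPM in the LGK974 libraries (log2 fold change 2.80, SE 0.60, adjusted p 0.0304), *Stard4*, a cholesterol carrier, was at 30.7 and 26.7 CPM against 14.1 and 15.1 CPM (0.97, SE 0.21, adjusted p 0.0338), and *Abcd3* was at 145.5 and 115.1 CPM (0.82, SE 0.19, adjusted p 0.0443). *Ch25h* was lower (−2.15, SE 0.39, adjusted p 0.0183). Without any 1 control or endotoxemic library, the calls of *Acnat1*, *Stard4* and *Abcd3* were lost, with adjusted p from 0.067 to 0.275, and they were also lost with only the LGK974 and endotoxemic libraries in the model (0.0716, 0.0847 and 0.0986). The call of *Ch25h* was lost without endotoxemic library 1 (0.165) or 2 (0.0971). Compared with control, 9 were lower and 1 was higher in the LGK974 group, against 17.7% and 16.4% of all genes tested. The lowest were *Akr1c14* (−4.61, SE 0.46, adjusted p 8.92e-05), *Slc27a2*, the peroxisomal ligase (−2.40, SE 0.21, adjusted p 3.76e-05), and *Akr1c6* (−2.35, SE 0.60, adjusted p 0.0145), the last call lost without control library 1 (0.0578) or 2 (0.0585). *Ch25h* was higher (5.55, SE 0.61, adjusted p 0.000153).

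**Figure D5:**
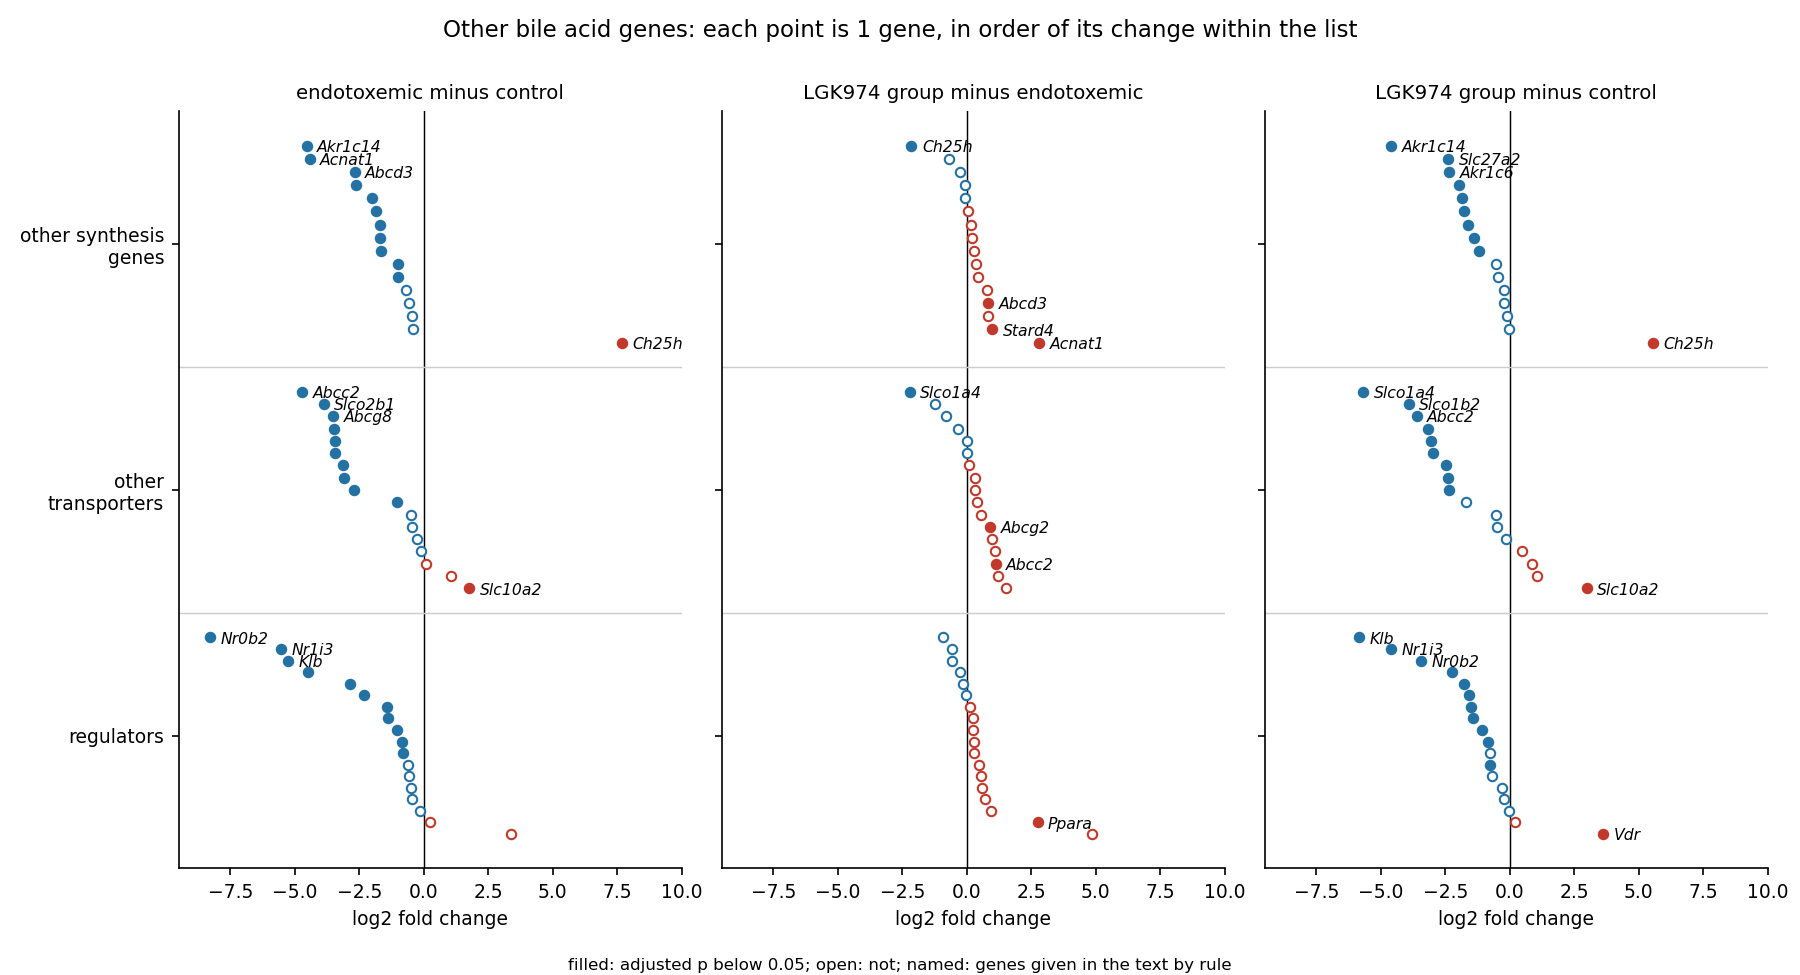
Log2 fold change (x axis) of each tested gene of 3 further lists (16 synthesis genes, 17 transporters and 18 regulators) in the 3 comparisons, in order of size within each list and filled where the adjusted p was below 0.05. In the first panel 11, 10 and 11 genes are filled and lower, against 23.0% of all genes tested, and *Ch25h* and *Slc10a2* are filled and higher. The regulators include *Nr1h4* under its deposited symbol.

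Of 18 other transporters of bile, 17 were tested. In the endotoxemic group compared with control 10 were lower and 1 was higher, against 23.0% and 20.4% of all genes tested. Their median log2 fold change was −2.71. *Abcc2* (MRP2), which exports conjugates into bile, was at 271.9 and 286.3 CPM in the control, 9.60 and 11.5 CPM in the endotoxemic and 17.0 and 28.6 CPM in the LGK974 libraries (−4.72, SE 0.30, adjusted p 5.21e-06). The uptake carrier *Slco2b1* (−3.88, SE 0.50, adjusted p 0.000289) and *Abcg8*, one part of the canalicular sterol exporter (−3.52, SE 0.24, adjusted p 6.97e-06), followed. *Slc10a2*, the apical uptake carrier of ileum and bile ducts, rose from 4 and 13 counts to 19 and 21 counts (1.76, SE 0.61, adjusted p 0.0421), a call that was lost without any 1 control or endotoxemic library (adjusted p 0.0526 to 0.19). Between the LGK974 and endotoxemic groups, 2 of the 17 were higher and 1 was lower, against 2.8% and 2.82% of all genes tested. *Abcc2* was higher with LGK974 (1.11, SE 0.27, adjusted p 0.048) and so was *Abcg2* (0.91, SE 0.22, adjusted p 0.0497), while the member *Abcb11* was lower. Both calls were lost without any 1 control or endotoxemic library and without LGK974 library 2, with adjusted p from 0.0624 to 0.299. The call of *Abcc2* was also lost with only the LGK974 and endotoxemic libraries in the model (0.125) and without TMM (0.0549), and that of *Abcg2* with these libraries only (0.106), without TMM (0.0559), with DESeq2 size factors (0.0538), with the replicate block (0.0586) and without the rows out of order (0.0507). *Slco1a4*, an uptake carrier known to be higher in female mouse liver, was lower (−2.22, SE 0.28, adjusted p 0.00492), and lost its call without endotoxemic library 2 (0.0627). Compared with control, 9 transporters were lower and 1 was higher in the LGK974 group, against 17.7% and 16.4% of all genes tested. The lowest were *Slco1a4* (−5.69, SE 0.29, adjusted p 1.74e-06), *Slco1b2*, an uptake carrier of hepatocytes (−3.92, SE 0.35, adjusted p 5.1e-05), and *Abcc2* (−3.61, SE 0.28, adjusted p 1.97e-05), and *Slc10a2* was higher (2.98, SE 0.59, adjusted p 0.0043).

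Of 20 listed regulators, 18 were tested. In the endotoxemic group 11 were lower and 0 were higher than control, against 23.0% and 20.4% of all genes tested. The median log2 fold change was −0.95, and −1.05 over the 17 whose rows stand in order. *Nr0b2*, which encodes the repressor SHP, was counted 366 and 611 times in control and 0 and 2 times in endotoxemic livers, a ratio of 340.3 with a 95% interval of 93.96 to 2814 from counting error alone (adjusted p 0.00125). In the same libraries *Cyp7a1*, a known target of the repressor, had 5 and 4 counts. A link between these falls was not tested. *Nr1i3*, the receptor CAR, fell by 5.54 (SE 0.43, adjusted p 1.68e-05) and *Klb*, the coreceptor for the ileal hormone FGF15, fell by 5.25 (SE 0.49, adjusted p 4.6e-05) on the log2 scale. In the LGK974 group, *Ppara*, a receptor for fatty acids, was the 1 regulator called against the endotoxemic group, where 2.8% of all genes tested were higher. It was at 61.4 and 131.8 CPM against 12.88 and 15.99 CPM (2.74, SE 0.35, adjusted p 0.00514). The call was lost without endotoxemic library 1 or 2. *Nr0b2* had 3 and 96 counts in the LGK974 libraries, so that 1 of them was near the endotoxemic level, and the difference from the endotoxemic group had an adjusted p of 0.108. Without LGK974 library 1 it was called higher, a call that rests on the 1 library with 96 counts. Compared with control, 11 regulators were lower and 1 was higher in the LGK974 group, against 17.7% and 16.4% of all genes tested. The lowest were *Klb* (−5.84, SE 0.49, adjusted p 3.45e-05), *Nr1i3* (−4.597, SE 0.38, adjusted p 3.23e-05) and *Nr0b2* (−3.43, SE 0.86, adjusted p 0.0135), the last call lost without control library 1 (0.0526) or 2 (0.0663). The 1 that was higher was *Vdr*, the vitamin D receptor, with 37 and 4 counts against 1 and 2 in control (ratio 12.8, counting interval 4.07 to 64.4, adjusted p 0.0471), a call lost when any 1 library other than LGK974 library 2 was left out (adjusted p 0.0771 to 0.604).

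The row of *Nr1h4*, which encodes FXR, is 1 of the 579 rows out of order and stands where *Dhx9* belongs. Under its deposited symbol it was at 60.8 and 66.4 CPM in the control, 55.1 and 35.3 CPM in the endotoxemic and 43.9 and 30.7 CPM in the LGK974 libraries, with adjusted p of 0.163 and 0.577 for the first and the second comparison. When, for rows out of order, the counts of all but the control libraries were given to the gene at whose place they stand, *Nr1h4* was at 61.2 and 66.9 CPM, 9.97 and 11.1 CPM, and 37.1 and 54.7 CPM, respectively. It was then lower in the endotoxemic group compared with control (−2.60, SE 0.25, adjusted p 6.33e-05) and higher in the LGK974 than in the endotoxemic group (2.12, SE 0.25, adjusted p 0.00311). The control libraries were left as deposited because hepatocyte genes out of order, such as *Ahsg*, are abundant there under their own symbols. *Ahsg*, the secreted protein fetuin-A, was at 17840 and 13100 CPM in control but at 16.04 and 10.98 CPM in the endotoxemic libraries as deposited, and at 6067 and 4658 CPM there after reassignment. The neutrophil gene *S100a8* was at 3.49 and 3.41 CPM in the endotoxemic libraries as deposited and at 561.2 and 544.0 CPM after reassignment. The direction of *Nr1h4* between the LGK974 and endotoxemic groups thus depends on which row holds the gene, and for rows out of order a deposited symbol may not name the same gene in the control and the other libraries. The values of the 10 bile acid genes do not use these rows.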

How the data were processed

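Mouse liver RNA was read in 8 deposited QuantSeq 3′ libraries, and the authors deposited whole-number read counts per gene symbol, not normalized. The submitters' processing notes name Bowtie2, mm10 and edgeR, and the program that counted reads is not given in the sources used here. Libraries with identical counts were merged (endotoxemic 3 with 1 and 4 with 2), leaving 6 libraries, 2 per group, of 9142116 to 15222439 counts. Rows with low counts were dropped by filterByExpr, which left 12701 rows. The 3 groups were fitted together by the edgeR 4.0.16 quasi-likelihood test with TMM in R 4.3.3, with Benjamini-Hochberg adjustment over all rows tested and a threshold of 0.05. Fold changes of genes with at most 3 counts in a group are given as ratios of summed counts with exact binomial 95% intervals (SciPy 1.17.1). These cover counting error only, and reads without molecular identifiers are not independent molecules.

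Row order was compared with RefSeq gene positions for the 23134 rows that have one. Gene coordinates are those of GENCODE M21 on GRCm38 (mm10). Alternatives were other filters, other scalings, DESeq2 1.42.0, a replicate block, the identical libraries kept apart, fits of 2 groups, rows out of order reassigned or left out, and each library left out in turn. The 10 genes and all lists were chosen with earlier results of these data known. Named genes are the 10 members, the 3 largest rises and falls past the threshold of each other list, and sex-linked genes. *Nr1h4*, *Ahsg*, *S100a8*, *Rn45s*, *Hnf4a*, *Nr5a2*, the promoter motifs and the single markers and sex-biased genes named as examples of their lists (*Csf3r*, *Ly6c2*, *Ptprc*, *Lyve1*, *Sox9*, *Krt19*, *Marco*, *Cyp4a12a*, *Mup20*) stand outside this rule and were chosen after values or sequences were seen.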

Additional observations from a re-analysis of the deposited data

How the results depend on the processing

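Of 476 re-computed changes of the 10 bile acid genes, 439 kept their direction and their side of the threshold, 20 passed it in addition, 10 no longer passed it and 7 changed sign. For the endotoxemic against the control group, 1 member was higher with no filter on low counts and 1 with only the 2 groups compared. A filter of at least 10 counts in every library left *Cyp7a1* out. Between the LGK974 and endotoxemic groups, the genes called higher among all genes numbered 881 with no filter, 600 with DESeq2, 1711 with the identical libraries as separate samples and 107 with only the 2 groups compared, and those called lower numbered 824, 627, 1548 and 162. Of the members, 1 was higher with no filter, with library totals without TMM and with DESeq2, and 2 were higher with the identical libraries separate. In turn 3 were lower with no filter, 2 with the identical libraries separate and 0 with only the 2 groups compared. The cause was not tested.

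With each library left out in turn, endotoxemic against control gave 1517 to 3196 genes higher and 1801 to 3523 lower, with 0 to 1 members higher and 7 to 8 lower. LGK974 against endotoxemic gave 23 to 1175 higher and 26 to 1067 lower, with 0 to 2 members higher and 0 to 3 lower. LGK974 against control gave 1041 to 2608 higher and 1331 to 2761 lower, with 0 to 2 members higher and 7 to 9 lower. Where a group is left with 1 library, that library is assumed to vary like the others, so such fits do not test the group's own spread.

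The sign of the following values, all on the log2 scale, changed in at least 1 setting, and the cause was not tested. With each library left out in turn, *Xist* between endotoxemic and control ranged from −0.40 to 0.31, and it was 0.01 with no filter. Between LGK974 and endotoxemic these ranges were −0.47 to 0.73 for *Cyp8b1*, −0.32 to 0.20 for *Slc10a1*, −0.39 to 0.02 for *Slc27a5*, −1.35 to 0.36 for *Baat*, −1.16 to 0.52 for *Akr1c14*, −2.35 to 0.07 for *Akr1c6*, −0.56 to 0.05 for *Nr1h4* and −2.21 to 1.10 for *Vdr*. *Nr1h4* was 2.12 when reassigned, and *Vdr* was −0.19 with the replicate block. Against control, *Baat* ranged from −0.63 to 1.08 and *Stard4* from −0.14 to 0.06, with 0.00 for *Stard4* with no filter.

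Nothing in the labels says that samples with the same replicate number share an animal, a day or a batch, and not every pair's deviations correlated above 0.1 (0.14, −0.007 and 0.061), so the numbers were not used to pair samples. The replicate block changed no call of the 10 bile acid genes, took the calls of *Abcg2* between LGK974 and endotoxemic (adjusted p 0.0586) and *Vdr* between LGK974 and control (0.0862), called *Nr1h4* lower between LGK974 and control (0.0305), and gave 2577 higher and 2908 lower genes for endotoxemic against control, 330 and 355 for LGK974 against endotoxemic, and 2048 and 2259 for LGK974 against control. With 2 libraries a group, and counts of 9 and 2 for *Cyp7a1*, differences between the LGK974 and endotoxemic groups are little resolved.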
